A study of Mus musculus with 6 samples.

Results

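The NRF2 antioxidant response was followed through 10 genes in the livers of mice lacking CREBH (CREBH-KO) and of wild-type (WT) mice. The genes were taken by name: Nfe2l2, which encodes NRF2, Keap1, which encodes its inhibitor, and the targets Nqo1, Gclc, Gclm, Hmox1, Txnrd1, Srxn1, G6pdx and Osgin1. All 10 were found among the 55536 gene identifiers of the count files, and all 10 passed the filter on low counts that left 15589 genes for testing. CREBH, the product of Creb3l3, is a liver transcription factor that is cut free from the endoplasmic reticulum membrane before it acts. Each genotype has 3 liver libraries, made from total RNA after a 14 h fast, so the groups share the fast and differ by genotype as labelled. The labels give no strain, age, sex, deleted exons or Cre driver, and they note a lost file of first reads for CREBH-KO 2 and CREBH-KO 3. They call the samples independent without naming mice, and p-values therefore measure only the spread between these samples, which may be technical.

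NRF2 is a basic leucine zipper factor that KEAP1 binds in the cytosol and hands to a CUL3 ubiquitin ligase for destruction. Electrophiles and oxidants modify cysteines of KEAP1, NRF2 then builds up, pairs with small MAF proteins in the nucleus and binds antioxidant response elements beside its targets. These targets make glutathione, recycle thioredoxin, supply NADPH, break down heme and detoxify quinones. Much of this control acts on NRF2 protein, which RNA counts do not measure.

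Each library held between 28106243 and 39288819 reads counted in genes. Creb3l3, the targeted gene, was at a normalised count of 466, 495 and 495 CPM (reads of a gene divided by the effective library size and brought to a common total) in WT and at 57.4, 45.0 and 46.4 CPM in CREBH-KO, a log2 fold change of -3.29 ± 0.11 (SE, edgeR's quasi-likelihood test, adjusted p = 3.00e-06). Over all tested genes 609 were higher and 1007 lower in CREBH-KO at an adjusted p under 0.05, and with scaling by library size alone these numbers were 813 and 726. The hepatocyte markers were abundant, with summed levels of 66274 to 80917 CPM in WT and 76005 to 83723 CPM in CREBH-KO, and 1 of 9, Apob, fell in edgeR's quasi-likelihood test. With scaling by library size alone 1 of the 9 was called higher and none lower, and DESeq2 called 1 higher and 1 lower. In edgeR none was called with upper-quartile factors or with any 1 library left out, where 1 or 2 were higher and 1 lower at an unadjusted p under 0.05. Of the other cell type markers, none of 12 tested for Kupffer cells, 9 for sinusoidal endothelium, 4 for lymphocytes and neutrophils and 5 for red blood cells was called. At an unadjusted p under 0.05, edgeR gave 1 lower Kupffer cell marker and 1 higher and 2 lower endothelial markers, and none for the last 2 lists. DESeq2 called 1 Kupffer cell marker lower and none of the others, and limma-voom called none. In edgeR 1 Kupffer cell marker was called higher without WT 3, and 1 higher and 1 lower with no filter on low counts. For endothelium 1 marker was called higher without WT 1, without WT 3 and with no filter. For lymphocytes and neutrophils 1 was called higher without WT 1. Of the stellate cell markers 2 of 9 rose, Dcn and Colec11, with summed levels of 238 to 288 CPM in WT and 303 to 348 CPM in CREBH-KO. At an unadjusted p under 0.05, edgeR gave 4 higher and none lower. Only 1 was called higher without WT 1, WT 3, CREBH-KO 1 or CREBH-KO 2, and 2 without WT 2 or CREBH-KO 3. Over all tested genes 3.91% rose. Of the cholangiocyte markers 1 of 5 rose, Sox9, with summed levels of 35.8 to 79.0 CPM in WT and 41.8 to 69.5 CPM in CREBH-KO. At an unadjusted p under 0.05, edgeR gave 1 higher and 1 lower cholangiocyte marker. The log2 fold change was 0.96 for Sox9 and -1.11 for Epcam, which did not pass (edgeR adjusted p = 0.107). Without CREBH-KO 1, edgeR called 2 cholangiocyte markers lower and none higher. Of all markers on these lists, S100a8 was at 0 in 1 library and Ly6g in 5. The part of these markers in the results below was not tested. In whole tissue, fewer cells of a type and less RNA per cell cannot be told apart.

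The start regions of the genes were searched for the core of the antioxidant response element, TGACNNNGC, on both strands. Regions of 300 bases, 250 before and 50 after the start, came from RefSeq (GRCm38.p6) and were matched by symbol for 8 of the 10 genes. Gclc and Hmox1 had no entry and were not searched. The motif lay in 5 of the 8 (Nfe2l2, Gclm, Txnrd1, Srxn1 and G6pdx), and 14.0% of all 27025 genes in the same table had it in a start region. It was not in these windows of Keap1, Nqo1 and Osgin1. The upstream matches are printed 5′ to 3′ on the strand of the gene, with the 9 bases of the match in capitals, because they are the sites at which the gene for the factor itself and its targets share letters. On the opposite strand the motif reads GCNNNGTCA.
Nfe2l2, chr2:75704875-75704913, minus strand: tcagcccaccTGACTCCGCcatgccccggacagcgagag
Gclm, chr3:122245403-122245451, plus strand: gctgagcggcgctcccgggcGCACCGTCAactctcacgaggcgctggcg
Txnrd1, chr10:82859094-82859142, plus strand: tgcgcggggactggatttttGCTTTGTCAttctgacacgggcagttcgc
G6pdx, chrX:74428909-74428957, minus strand: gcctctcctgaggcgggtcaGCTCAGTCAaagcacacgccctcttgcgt
The match began 240 bases before the start in Nfe2l2, 134 in Gclm, 92 in Txnrd1, at 1 of its 3 start sites, and 57 in G6pdx. In Srxn1 it lay after the start. None of these matches contained the AP-1 motif TGACTCA or overlapped the cyclic AMP response element TGACGTCA. A match describes letters and does not show binding.

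The question put to these genes is whether the NRF2 response differed without CREBH during fasting. Of the 10 genes 2 rose in CREBH-KO, Hmox1 and Gclc, none fell and 8 did not pass (edgeR's quasi-likelihood test with Benjamini-Hochberg adjustment over all tested genes). Among all tested genes 3.91% rose and 6.46% fell, 10.4% in either direction. At an unadjusted p under 0.05 the count was 5 higher and none lower, and DESeq2 called 3 higher and none lower. The median log2 fold change of the 10 was 0.41, beside 0.025 for all tested genes. All CREBH-KO libraries lay above all WT libraries for 5 of the 10 (Nfe2l2, Gclc, Hmox1, G6pdx and Osgin1) and below them for none. Of all tested genes 15.0% lay wholly above and 15.7% wholly below, 30.6% together. Both calls were lost in several fits with 1 library left out, which hold fewer samples. None of the 10 was called without WT 2, CREBH-KO 2 or CREBH-KO 3, where 4, 4 and 5 were higher at an unadjusted p under 0.05 and none, 1 and none lower, and 1 was called without WT 1. Set against CREBH-KO 1 alone, with the lone sample assumed to vary like the WT samples, none was called, and 1 was higher and 1 lower at an unadjusted p under 0.05.

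**Figure D1:**
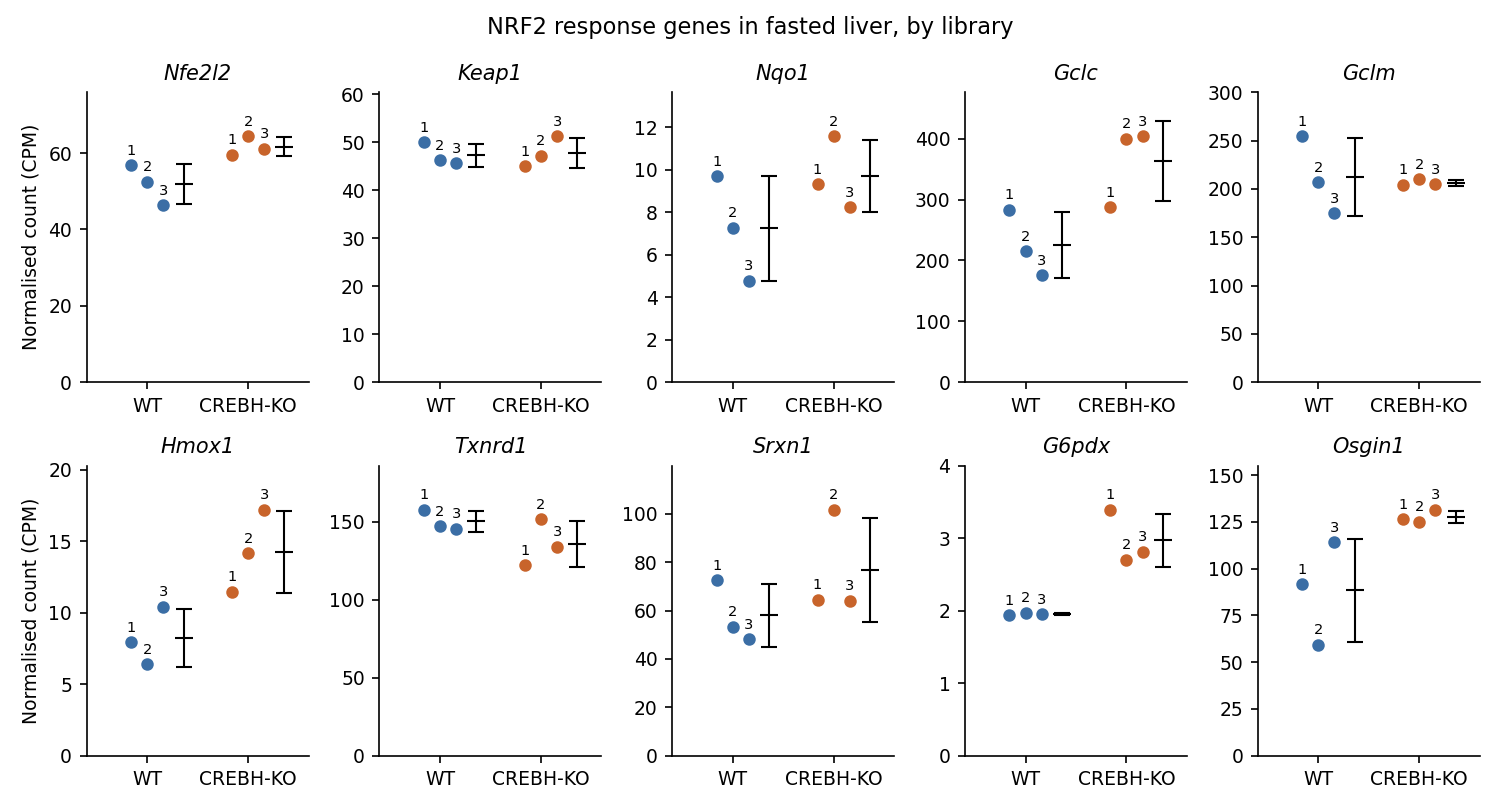
Normalised counts (CPM, linear axes from 0) of the 10 genes in each library. Numbered points are libraries and the bars beside them are mean ± SD of 3. Nfe2l2, Gclc, Hmox1, G6pdx and Osgin1 show no overlap between genotypes.

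Nfe2l2 (ENSMUSG00000015839, chromosome 2 from 75675513 to 75704641, minus strand, GRCm38) stood at 56.9, 52.5 and 46.3 CPM in WT 1, 2 and 3. In CREBH-KO 1, 2 and 3 it stood at 59.6, 64.4 and 61.15 CPM. Each CREBH-KO library was above every WT library, with the closest pair being WT 1 and CREBH-KO 1. The log2 fold change was 0.25 ± 0.09 (SE, 95% interval 0.043 to 0.46, not adjusted for the number of genes) and did not pass (edgeR adjusted p = 0.125). Keap1 (ENSMUSG00000003308, chromosome 9 from 21229730 to 21239361, minus strand) stood at 50.0, 46.3 and 45.6 CPM in WT and at 45.0, 47.2 and 51.2 CPM in CREBH-KO. The groups overlapped throughout, and the 95% interval of its log2 fold change, -0.17 to 0.20, bounds a difference of either sign. Of the exonic bases of Keap1, 10.9% lie within the antisense gene Gm16754, whose reads cannot be told apart with the strand setting unknown.

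Glutathione synthesis starts with glutamate-cysteine ligase, made of a catalytic subunit encoded by Gclc and a modifier subunit encoded by Gclm. Gclc (ENSMUSG00000032350, chromosome 9 from 77754535 to 77794485, plus strand) stood at 283, 215 and 176 CPM in WT and at 288, 399.9 and 404 CPM in CREBH-KO. CREBH-KO 1 was close to WT 1, while CREBH-KO 2 and 3 were well above all the others. CREBH-KO 2 and 3 are also the libraries noted with a lost file of first reads, and the part of that loss in their values was not tested. The mean rose from 225 ± 54.1 to 364 ± 65.9 CPM (SD, n = 3 each), a log2 fold change of 0.69 ± 0.18 (SE, edgeR adjusted p = 0.0421) or 1.62-fold. The call was lost without WT 2 (log2 fold change 0.66, adjusted p = 0.147), WT 3 (0.54, 0.101), CREBH-KO 2 (0.62, 0.135) or CREBH-KO 3 (0.61, 0.137), and in edgeR's robust fit (0.69, 0.0734). Against CREBH-KO 1 alone, which leaves out CREBH-KO 2 and 3, the log2 fold change was 0.33.

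Gclm (ENSMUSG00000028124, chromosome 3 from 122245557 to 122270732, plus strand) stood at 254.5, 207 and 175 CPM in WT. In CREBH-KO it stood at 204, 209.9 and 205 CPM, inside the WT range in every library. Its log2 fold change was -0.04 ± 0.12 (95% interval -0.32 to 0.24, edgeR adjusted p = 0.878), and its sign turned with scaling by library size alone (0.034) and without WT 1 (0.10). A ratio of the 2 subunits within each library needs no scaling between libraries. Per length, Gclc over Gclm was 1.86, 1.74 and 1.68 in WT and 2.35, 3.18 and 3.29 in CREBH-KO, with no overlap. The means were 1.76 ± 0.0887 and 2.94 ± 0.513 (SD, n = 3 each; exact permutation test, two-sided p = 0.1, the smallest that 3 against 3 can give). This ratio was chosen after the values had been seen.

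Hmox1 (ENSMUSG00000005413, chromosome 8 from 75093621 to 75100589, plus strand) encodes heme oxygenase 1, which opens the heme ring and releases iron and biliverdin. It stood at 7.96, 6.41 and 10.4 CPM in WT and at 11.5, 14.15 and 17.2 CPM in CREBH-KO. The groups did not overlap, and WT 3 and CREBH-KO 1 were nearest to each other. The mean rose from 8.26 ± 2.03 to 14.3 ± 2.88 CPM (SD, n = 3 each), a log2 fold change of 0.79 ± 0.20 (SE, edgeR adjusted p = 0.0399) or 1.73-fold. The call was lost without WT 1 (log2 fold change 0.75, adjusted p = 0.0751), WT 2 (0.63, 0.136), CREBH-KO 2 (0.79, 0.107) or CREBH-KO 3 (0.63, 0.140). Against CREBH-KO 1 alone the log2 fold change was 0.45. Hmox1 is also known to be high in Kupffer cells, the macrophages of the liver, which take up old red cells. The summed level of 12 Kupffer cell and macrophage markers was 106 to 225 CPM in WT and 123 to 149 CPM in CREBH-KO, and their part in the Hmox1 result was not tested.

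Nqo1 (ENSMUSG00000003849, chromosome 8 from 107388225 to 107403206, minus strand) encodes a quinone reductase that is widely read as an indicator of NRF2 activity. It stood at 9.71, 7.29 and 4.78 CPM in WT and at 9.33, 11.6 and 8.26 CPM in CREBH-KO. WT 1 lay within the CREBH-KO range and above 2 of its 3 libraries. The log2 fold change was 0.42 ± 0.24 (SE, 95% interval -0.13 to 0.97) and did not pass (edgeR adjusted p = 0.329). On the linear scale the interval runs from 0.911-fold to 1.95-fold. With single libraries left out, the value ran from 0.19 (without WT 3) to 0.67 (without WT 1).

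In the thioredoxin branch, Txnrd1 encodes cytosolic thioredoxin reductase and Srxn1 encodes sulfiredoxin, which restores overoxidised peroxiredoxins. Txnrd1 (ENSMUSG00000020250, chromosome 10 from 82833951 to 82897712, plus strand) stood at 158, 147 and 146 CPM in WT and at 122, 152 and 134 CPM in CREBH-KO. CREBH-KO 2 lay within the WT range and the other two CREBH-KO libraries lay below it, and the log2 fold change of -0.14 ± 0.09 did not pass (SE, edgeR adjusted p = 0.378). Srxn1 (ENSMUSG00000032802, chromosome 2 from 152105516 to 152111376, plus strand) stood at 72.6, 53.3 and 48.1 CPM in WT and at 64.5, 101.7 and 64.05 CPM in CREBH-KO. A single library, CREBH-KO 2, was above all WT libraries, and the log2 fold change of 0.40 ± 0.20 (edgeR adjusted p = 0.258) was 0.15 without it.

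G6pdx (ENSMUSG00000031400, chromosome X from 74409483 to 74429194, minus strand) encodes glucose-6-phosphate dehydrogenase, which makes NADPH at the entry of the pentose phosphate pathway. It had the fewest reads of the 10, from 60 to 116 counts per library. It stood at 1.94, 1.97 and 1.95 CPM in WT and at 3.39, 2.70 and 2.81 CPM in CREBH-KO. The WT libraries were nearly equal and all CREBH-KO libraries were higher, yet the log2 fold change of 0.61 ± 0.21 (SE, 95% interval 0.13 to 1.08) did not pass (edgeR adjusted p = 0.110). It passed in none of the 15 alternative analyses (adjusted p of 0.0771 to 0.339). Of its exonic bases 13.6% lie within the antisense gene Ikbkg, and its retrogene copy G6pd2 makes reads of the family uncertain.

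Osgin1 (ENSMUSG00000074063, chromosome 8 from 119434124 to 119446256, plus strand) encodes an oxidative stress-induced growth inhibitor. It stood at 91.6, 59.4 and 114 CPM in WT and at 126, 125 and 131.5 CPM in CREBH-KO. The CREBH-KO libraries were close to each other and above a widely spread WT group. The log2 fold change of 0.53 ± 0.19 (SE, 95% interval 0.10 to 0.96) did not pass in edgeR (adjusted p = 0.117). It passed in DESeq2 (adjusted p = 0.0355), with no filter on low counts (0.00139) and without WT 3 (0.76, adjusted p = 0.0290), and the value was 0.31 without WT 2.

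**Figure D2:**
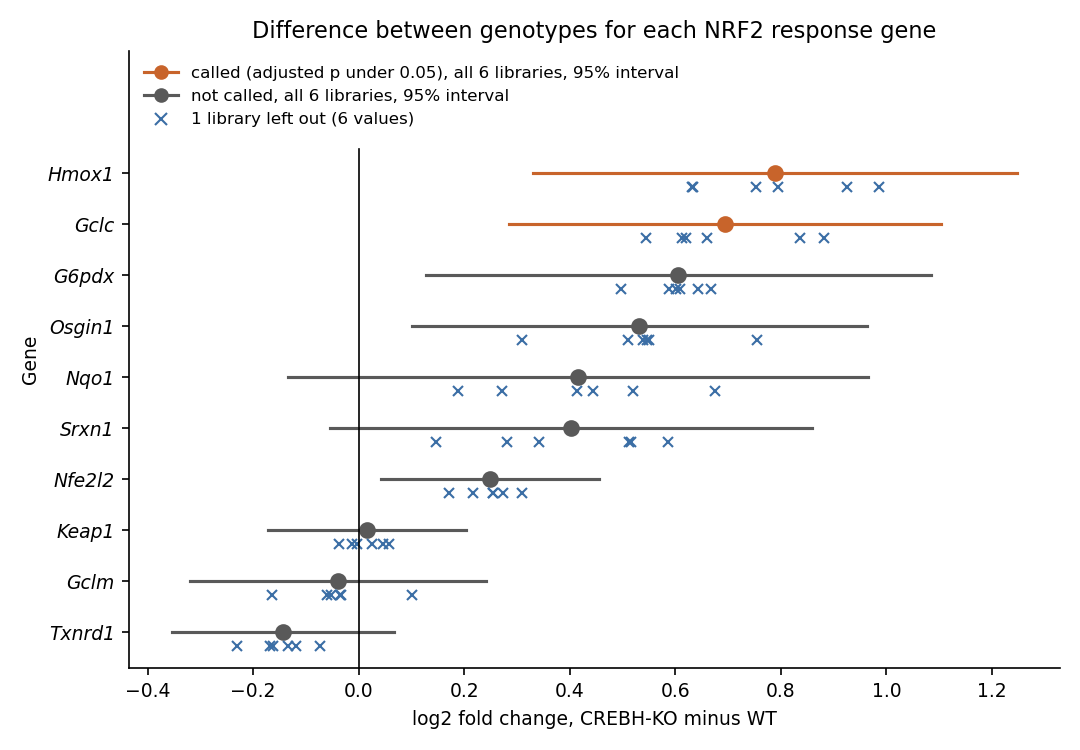
Log2 fold change (CREBH-KO minus WT) of each gene with its 95% interval from all 6 libraries (circles and lines) and with 1 library left out (crosses). Hmox1 and Gclc are at the top at 0.79 and 0.69, Txnrd1 is at the bottom at -0.14, and the crosses of Keap1 and Gclm fall on both sides of 0.

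Levels of different genes were compared per length, in TPM, which divides the reads of a gene by the length of its merged annotated exons before scaling each library to one total. In WT the order was Gclc at 121 ± 27.4 TPM, Gclm at 68.4 ± 12.0, Osgin1 at 67.2 ± 21.3, Txnrd1 at 43.1 ± 1.31 and Srxn1 at 41.7 ± 8.69 TPM (SD, n = 3). Below them came Nfe2l2 at 27.7 ± 2.48, Keap1 at 20.5 ± 0.760, Hmox1 at 9.60 ± 2.43, Nqo1 at 9.46 ± 3.10 and G6pdx at 1.29 ± 0.0244 TPM. Neighbours in this order whose WT libraries overlapped were Gclm and Osgin1, Txnrd1 and Srxn1, and Hmox1 and Nqo1. The glutathione ligase genes were therefore among the most abundant of the set and the first enzyme of the pentose phosphate pathway the least. In CREBH-KO, Osgin1 (104 ± 8.58 TPM) stood above Gclm (71.3 ± 7.34 TPM) with no overlap, and Srxn1 (60.0 ± 22.3 TPM) above Txnrd1 (42.0 ± 8.32 TPM) with overlap. Hmox1 (17.8 ± 4.20 TPM) and Nqo1 (13.7 ± 3.50 TPM) still overlapped. In the CREBH-KO order the neighbours Gclm and Srxn1, Txnrd1 and Nfe2l2, and Keap1 and Hmox1 overlapped as well.

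**Figure D3:**
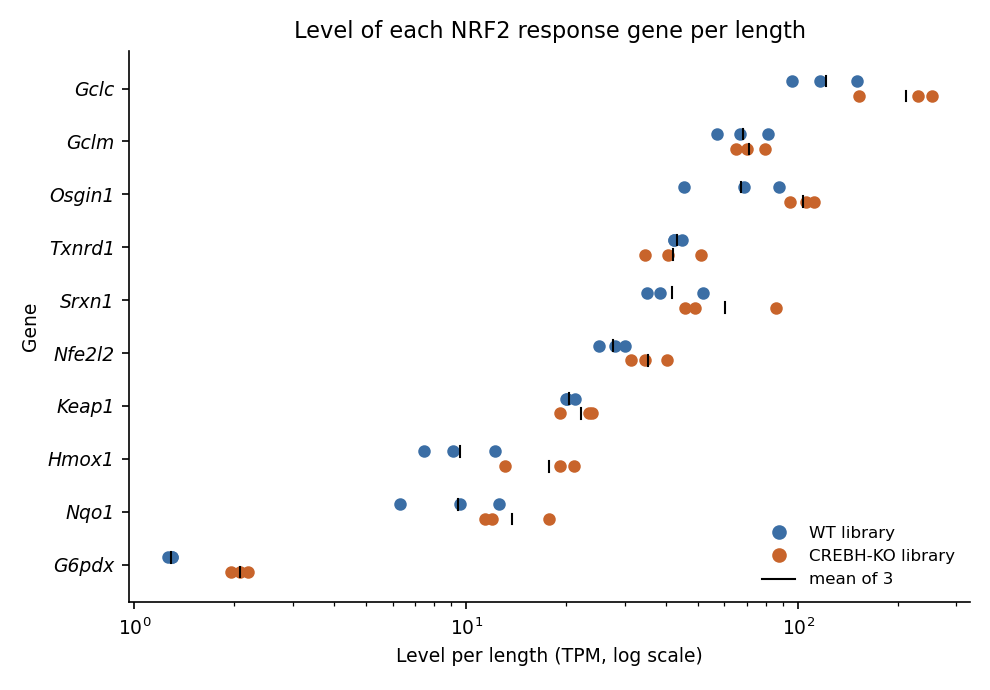
Level per length (TPM, log axis) of each gene in each WT and CREBH-KO library, with a tick at the mean of 3. The genes are ordered by their WT mean, from Gclc at 121 TPM to G6pdx at 1.29 TPM.

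The other genes of the pathway were taken from a list of 66 in 7 roles, of which 65 were tested; the cystine carrier gene Slc7a11 did not pass the filter. In edgeR's quasi-likelihood test 2 rose, 11 fell and 52 did not pass, with a median log2 fold change of -0.15, where 3.91% of all tested genes rose and 6.46% fell. DESeq2 called 2 higher and 13 lower. With scaling by library size alone 2 were higher and 7 lower, and the median was -0.076. Of the 11 that fell 5 were detoxifying enzymes. All CREBH-KO libraries lay below all WT libraries for 20 of the 65 and above for 8, beside the shares of all tested genes given above. The number called was 4 without WT 2, 6 without CREBH-KO 2, 5 without CREBH-KO 3 and 1 against CREBH-KO 1 alone.

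Among 12 partners and regulators of NRF2, 1 fell, where 6.46% of all tested genes fell. It was Mafk, a small MAF partner, at 16.5, 17.5 and 20.6 CPM in WT and at 14.9, 12.4 and 11.9 CPM in CREBH-KO (log2 fold change -0.47 ± 0.13 SE, edgeR adjusted p = 0.0480). Its call was lost in 9 of 15 alternatives, including scaling by library size alone (adjusted p = 0.0741) and leaving out any 1 of WT 2, WT 3, CREBH-KO 2 and CREBH-KO 3. The other small MAF genes had log2 fold changes of -0.34 ± 0.14 (Mafg) and -0.46 ± 0.49 (Maff). Bach1, a repressor that competes at the same elements and controls Hmox1, had one of -0.32 ± 0.16, and Cul3, the ligase scaffold, one of -0.13 ± 0.07. None of these passed (edgeR adjusted p of 0.167, 0.606, 0.266 and 0.281). Sqstm1, whose product p62 binds KEAP1, had a log2 fold change of 0.25 ± 0.12 and the related factor gene Nfe2l1 one of -0.047 ± 0.08, and neither passed (edgeR adjusted p = 0.230 and 0.770). Rbx1, Bach2, Nfe2l3, Btrc and Gsk3b, the remaining genes of this role, had log2 fold changes of 0.11, -0.46, 0.27, -0.054 and -0.096. They did not pass either (edgeR adjusted p of 0.421, 0.405, 0.743, 0.782 and 0.518), and Nfe2l3 had only 8 to 18 counts per library.

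In the other antioxidant roles the called genes were all lower, but each role held only 1, where 6.46% of all tested genes fell. Of 7 tested genes of glutathione supply and recycling, Gpx4, which reduces lipid hydroperoxides, fell from 334 ± 12.0 to 268 ± 11.1 CPM (SD, n = 3; log2 fold change -0.32 ± 0.08 SE, edgeR adjusted p = 0.0301). Of 5 thioredoxin and peroxiredoxin genes, the peroxiredoxin gene Prdx6 was lower at 408 ± 8.67 CPM against 557 ± 29.3 CPM (-0.45 ± 0.08, edgeR adjusted p = 0.00810). Of 6 genes of NADPH supply, the transaldolase gene Taldo1 was lower at 81.2 ± 1.37 CPM against 108 ± 10.3 CPM (-0.41 ± 0.09, edgeR adjusted p = 0.0199). Of 6 heme and iron genes, Fech, which encodes the ferrochelatase that completes heme, was lower at 125 ± 5.91 CPM against 154 ± 8.30 CPM (-0.30 ± 0.08, edgeR adjusted p = 0.0404). No other gene of these 4 roles passed in edgeR's quasi-likelihood test. DESeq2 and limma-voom each called 2 heme and iron genes lower, and edgeR with no filter on low counts called 3, with 2 of glutathione supply. The calls of Gpx4 and Fech were lost with scaling by library size alone (adjusted p = 0.0846 and 0.119) and without any 1 library except WT 1 (up to 0.123 and 0.161). Taldo1 did not pass when WT 2, CREBH-KO 2 or CREBH-KO 3 was left out (largest adjusted p = 0.0851), nor Prdx6 when WT 2 was (0.0511).

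The largest changes on the list were in detoxification. Of 24 conjugating and detoxifying genes 5 fell and 1 rose, beside 6.46% and 3.91% of all tested genes. Cyp2a5, which encodes the liver coumarin hydroxylase, stood at 2251, 1865 and 1930 CPM in WT and at 441, 391 and 463 CPM in CREBH-KO, with wide separation. Its log2 fold change was -2.22 ± 0.11 (SE, edgeR adjusted p = 1.64e-05), and it passed in all 15 alternatives. The mu-class glutathione transferase genes Gstm2 and Gstm3 fell from 70.6 ± 16.1 to 29.7 ± 7.14 CPM and from 85.2 ± 37.2 to 35.9 ± 4.57 CPM. Their log2 fold changes were -1.25 ± 0.20 and -1.24 ± 0.29 (edgeR adjusted p = 0.00515 and 0.0300), and the call of Gstm3 was lost in the robust fit (0.129), in limma-voom (0.0524) and without WT 1, WT 2, CREBH-KO 2 or CREBH-KO 3 (up to 0.109).

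In the opposite direction, the pi-class transferase gene Gstp1 stood at 1159, 930 and 852 CPM in WT and at 1513, 2367 and 1935 CPM in CREBH-KO. Its groups did not overlap, and it rose 1.98-fold (log2 fold change 0.98 ± 0.17 SE, edgeR adjusted p = 0.00813). Among 5 export pumps, Abcc5 rose from 4.63 ± 0.558 to 8.19 ± 0.997 CPM (0.83 ± 0.17, edgeR adjusted p = 0.0153). Abcc3, which sends conjugates into the blood, was lower at 428 ± 15.7 CPM against 586 ± 54.9 CPM (-0.45 ± 0.09, edgeR adjusted p = 0.0157). Abcc5 did not pass when WT 2 or CREBH-KO 3 was left out (0.0633 and 0.0642), nor Abcc3 when these or CREBH-KO 2 were (0.0777, 0.0508 and 0.0589). Reads that align to several places were not given to genes, so values of Cyp2a5, of the Gstm genes and of Gstp1, which have near-identical relatives, are uncertain.

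**Figure D4:**
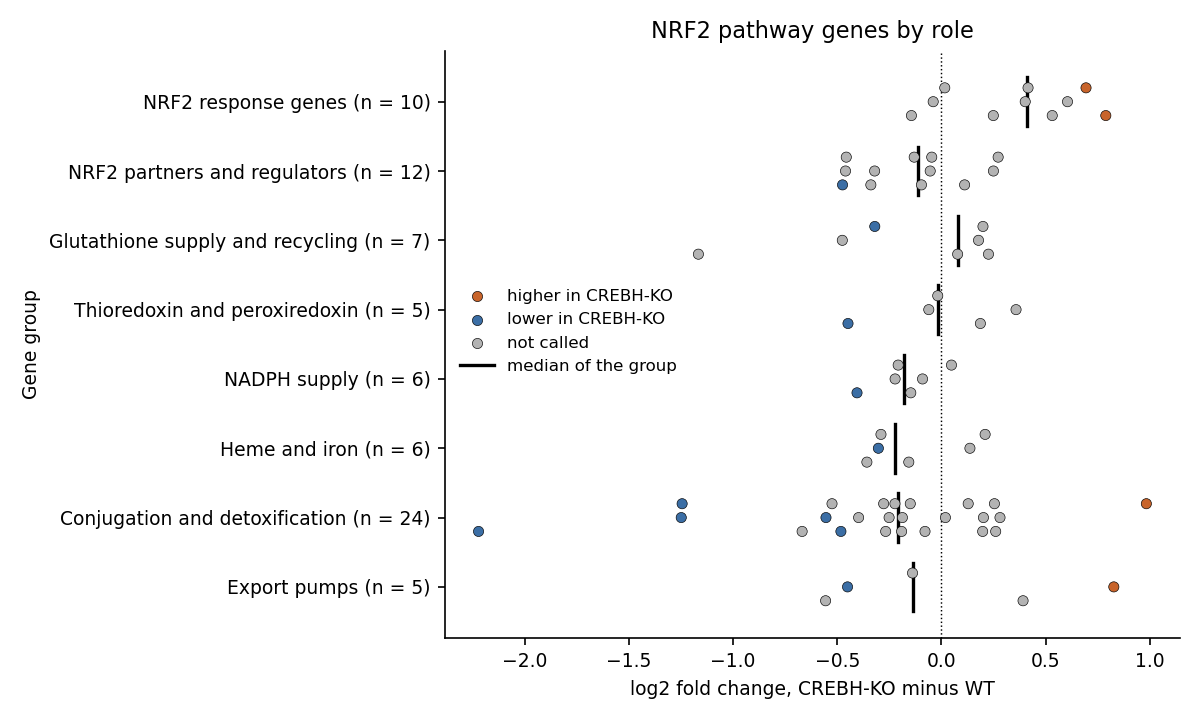
Log2 fold change (CREBH-KO minus WT) of the 10 NRF2 response genes and of the other tested pathway genes by role. Each point is a gene, coloured by its call, and the bar is the group's median. The median is 0.41 for the 10 genes and below 0 in 6 of the 7 other roles, with glutathione supply and recycling at 0.078.

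The 10 genes also varied among themselves within a genotype. Deviations of log2 CPM from the genotype means were compared for all 45 pairs over the 6 libraries, which share depth and scaling. Taking off the genotype means leaves fewer than 6 free values, so a high r is easily reached. Pearson's r was above 0.8 for 9 pairs, led by Nfe2l2 with Nqo1 (0.96), Nfe2l2 with Gclm (0.94) and Nqo1 with Gclm (0.92). It was lowest for Txnrd1 with G6pdx (-0.85), and the median was 0.28. The share of pairs above 0.8 among all tested genes was not calculated, so these counts have no background beside them. Nfe2l2, Nqo1 and Gclm each ran from high to low in the order WT 1, WT 2 and WT 3, as did 21.0% of all tested genes. Over all tested genes the patterns most like that of Nfe2l2 across the 6 libraries were Nr2f6, Tctex1d4 and Hunk (r of 0.99 each), and those of Mal2 (1.00) and Arl5c (0.99) were among the most like Nqo1. Of the 15589 tested genes, 161 had an r above 0.95 with Nfe2l2 and 80 with Nqo1.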

How the data were processed

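Liver RNA of 3 WT and 3 CREBH-KO samples was sequenced as paired-end reads, per the labels. The authors deposited 1 table of read counts per library, with HTSeq named in the titles, per the labels. The sources used here do not name the aligner, the build or the strand setting. All 55536 identifiers matched GENCODE M21 (GRCm38), which gave symbols, positions and exon lengths. HTSeq's summary lines (27.4% to 31.2% of listed reads, 13.7% to 15.0% aligned to several places) were left out. Counts were filtered with filterByExpr (minimum count 10, minimum total 15), scaled with TMM factors (0.967 to 1.05) and tested with edgeR 4.0.16 in R 4.3.3 by the quasi-likelihood test, two-sided, with Benjamini-Hochberg adjustment and a threshold of 0.05. SE is the absolute log2 fold change over the square root of F. Correlations used log2(CPM + 0.1). Tested on counts simulated for 15589 genes, the test recovered 31.3% of 67 genes changed 1.5-fold and 83.6% of 67 changed 2-fold. It recovered 97.0% of 66 changed 4-fold, and no other gene was changed in the simulation. In the data 1616 genes were called, so these rates may not carry over. Alternatives used other scalings and filters, DESeq2 1.42.0, limma 3.58.1, the robust fit and left-out libraries. The members and lists were chosen with earlier results of these data known. All 10 genes were named, with all partners and regulators and up to 3 called genes per direction in each other role.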

Additional observations from a re-analysis of the deposited data

How the results depend on the processing

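Over all genes, 1616 were called. The count was 2456 with no filter on low counts, 658 to 1806 with 1 library left out (658 without WT 2, 838 without CREBH-KO 2, 778 without CREBH-KO 3) and 228 against CREBH-KO 1 alone. Of the 10 NRF2 response genes, 2 were called, 4 with no filter, 1 in the robust fit, 0 to 2 with 1 library left out and 0 against CREBH-KO 1 alone, where 1 was higher and 1 lower at an unadjusted p under 0.05 in edgeR. Of the 65 other pathway genes, 13 were called, 4 to 15 with 1 library left out and 1 against CREBH-KO 1 alone. Fewer samples enter these fits; otherwise the cause was not tested. Keap1 turned to -0.0056 with no filter and to -0.094 against CREBH-KO 1 alone, and ran from -0.037 to 0.057 with 1 library left out. Gclm turned to 0.034 with library size alone and ran from -0.16 to 0.10 with 1 library left out. The other 8 genes kept their direction in all 15 alternatives. The median of the 10 ran from 0.23 to 0.57. Differences of 1.5-fold were recovered in 31.3% of simulated cases, where far fewer genes were changed than were called in the data. That rate may not carry over to the data, and a gene that did not pass may still differ at that size. No paired analysis was possible because the libraries were numbered in accession order and the labels tie no WT library to a CREBH-KO library.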

Other observations

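Within WT, 7 of the 10 genes (Nfe2l2, Keap1, Nqo1, Gclc, Gclm, Txnrd1 and Srxn1) were highest in WT 1 and lowest in WT 3. Of the 65 other pathway genes 32 (49.2%) had the same order, beside 21.0% of all 15589 tested genes. The members that departed from it were Hmox1 and Osgin1, lowest in WT 2 and highest in WT 3, and G6pdx, at 1.94 to 1.97 CPM in all WT libraries. This was noticed after the values had been seen, and the libraries carry no label that orders them.

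The core motif TGACNNNGC lay in a start region of 15 of 58 other pathway genes with a RefSeq entry (25.9%, beside 14.0% of all genes). The genes were listed for their place in the pathway, so this share is no test. Of these 15 genes, edgeR called none higher and 2 lower, beside 3.91% and 6.46% of all tested genes.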
